A study of Mus musculus with 6 samples.

Results

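Described here are 7 genes of the sodium pump: the regulator genes Fxyd1, Fxyd2, Fxyd5, Fxyd6 and Fxyd7 and the beta subunit genes Atp1b1 and Atp1b3. They were picked by symbol from the 22394 genes of the deposited table, and all 7 passed the filter on low values that left 16933 genes for testing. The set was put together with the mutant-control differences of these same libraries in view, Fxyd7 having been among the larger rises. The fold changes and calls of these 7 genes are therefore a description and no independent evidence.

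Whole kidneys of mouse embryos were sampled at E13.5, a stage of ureteric branching and early nephron formation. The 3 mutant libraries had the genotype Foxd1Cre;Ptch1 (flox/-), that is, the Cre driver plus a floxed and a null Ptch1 allele. The 3 control libraries were from Ptch1 (flox/+) littermates, in which the other allele was wild type and no Cre is named, so every library carried a floxed Ptch1 allele. Foxd1 drives Cre in the renal stromal progenitors, while the null allele was present in every cell of the mutants. Cre, the null allele and loss of Ptch1 in the stroma cannot be told apart in this design. Ptch1 encodes the receptor that holds Hedgehog signalling off, and the comparison addresses the effect of its removal from the Foxd1 lineage on kidney gene expression.

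Depth was 13261588 to 47847925 reads per library. Control 2 stood apart, at 75.8 on principal component 1 (39.4% of variance) with the other 5 libraries at -24.6 to 8.49. Control 2 and all mutants expressed the Y-linked gene Ddx3y (13.9 to 17.8 FPKM), while controls 1 and 3 did not (0.0598 and 0.0177 FPKM), so sex was not balanced. FPKM are reads scaled to gene length and library depth. Ptch1 was at 7.60 to 8.26 FPKM in controls and 23.5 to 35.8 FPKM in mutants. This value covers the whole gene and does not check removal of the floxed exons. All 8 kidney epithelial markers (such as Pax2 and Cdh16) and all 6 nephron progenitor markers (such as Six2) had reads in every library.

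The sodium pump, or Na,K-ATPase, is a membrane enzyme that exports sodium and imports potassium at the cost of ATP. Its alpha subunit is the catalytic part, its beta subunit is needed for folding and delivery to the membrane, and a small single-span protein of the FXYD family, named after a shared sequence motif, tunes its affinity for ions. In the kidney the pump of the basolateral membrane drives the reabsorption of sodium by the tubule, where Fxyd2 encodes its gamma subunit.

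Among the 7 genes, Fxyd7 alone was called (1 of 7, limma adjusted p under 0.05), where 0.307% of all genes tested were called, 0.219% higher and 0.0886% lower in mutants. The levels of Fxyd1, Fxyd5 and Fxyd7 did not overlap between the groups and were higher in mutants (3 of 7). The same held for 7.57% of all genes tested, and an unadjusted p under 0.05 with a higher level in mutants, as in these 3, for 5.26%. In the authors' deposited table Fxyd7 was again the only 1 of the 7 called, where 4.61% of all its genes were called and 3.07% were called higher. Nothing is read from these shares, because the set was chosen with this contrast in view. Fold changes are on the log2(normalized count + 1) scale. All 7 had a positive fold change, with a median of 0.18, against a median of -0.0074 and 49.1% positive over all genes tested.

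**Figure D1:**
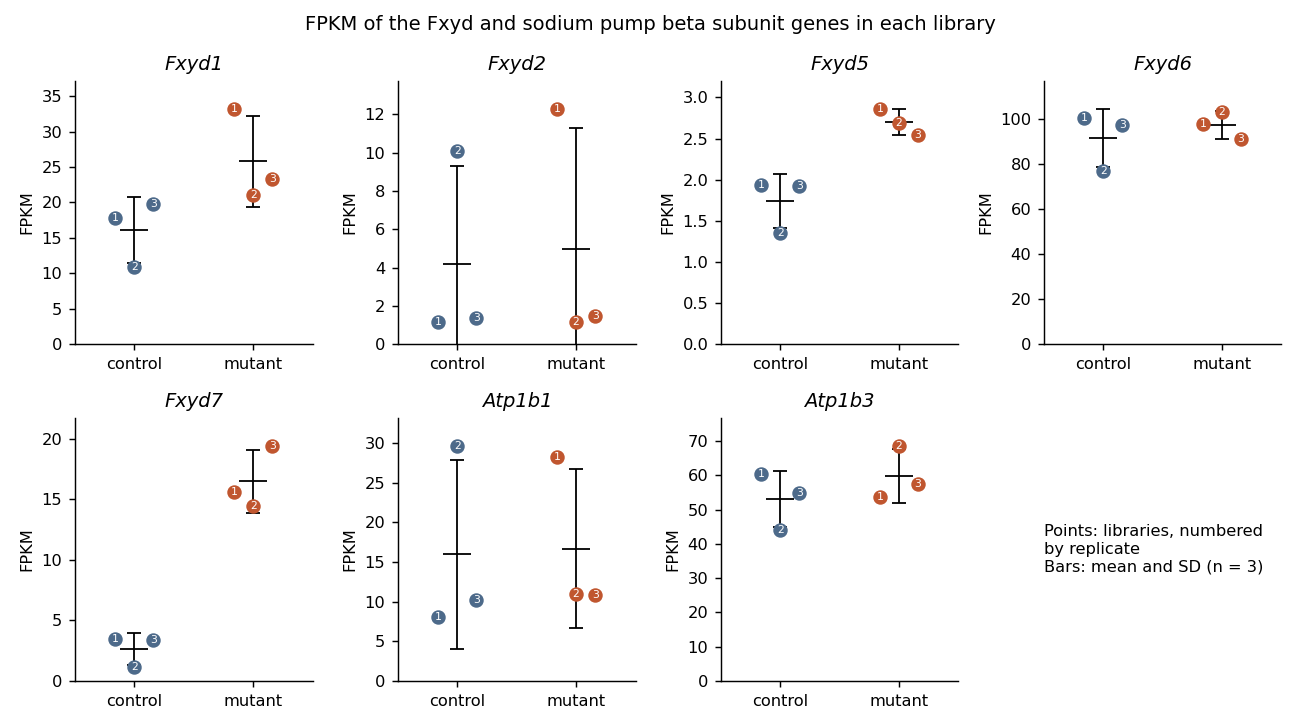
FPKM (y axis, from 0) of the 7 genes in each control and mutant library, with points numbered by replicate and bars for mean and SD (n = 3, the SD of Fxyd2 drawn down to 0 only). Fxyd7 sits at 1.15 to 3.44 FPKM in controls and 14.5 to 19.4 in mutants, whereas Fxyd2 and Atp1b1 are high in control 2 and mutant 1.

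Fxyd7 encodes a regulator of the pump known chiefly from brain. It was at 3.44, 1.15 and 3.35 FPKM in controls 1 to 3 and at 15.6, 14.5 and 19.4 FPKM in mutants 1 to 3, from 52, 20 and 57 reads and 237, 134 and 643 reads. The lowest mutant was thus 4.20 times the highest control. Group means were 2.65 ± 1.29 and 16.5 ± 2.59 FPKM (SD, n = 3 each), a ratio of 6.23. The log2 fold change was 2.75 (SE 0.41, 95% interval 1.82 to 3.69, limma adjusted p = 0.0395). In the authors' deposited table it was 3.12 with an adjusted p of 1.44e-12. In whole-organ RNA, more cells that express a gene and more RNA per cell cannot be told apart.

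The call of Fxyd7 depended on single libraries and on the variance model, while its log2 fold change stayed above 2. With no intensity trend in limma the adjusted p was 0.113 at the same fold change. Leaving out control 1 or 3 gave an adjusted p of 0.0784 or 0.103, and leaving out mutant 1, 2 or 3 gave 0.183, 0.199 or 0.202. Leaving out control 2, in which Fxyd7 was lowest, gave 0.00225. Across these 6 fits the log2 fold change was 2.25 to 3.01. Control 2, the only control with Ddx3y, had the lowest Fxyd7 of all libraries, from 20 reads. Among the 4 libraries with Ddx3y, Fxyd7 was at 1.15 FPKM in this control and 14.5 to 19.4 FPKM in the mutants. This control also stood apart from the other libraries, as given above. The part of sex in the Fxyd7 result was not tested.

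The levels of marker lists of other cells are given beside this result. The summed level of 10 endothelial markers was 120 to 136 FPKM in controls and 233 to 292 FPKM in mutants. Limma called 4 of the 10 higher (Tie1, Emcn, Esam and Cldn5), with 10 before adjustment at 0.05, and the authors' deposited table called 9 higher. The summed level of 10 mural and smooth muscle markers was 150 to 182 FPKM in controls and 228 to 282 FPKM in mutants, where limma called 0 (7 before adjustment at 0.05) and the authors' deposited table called 6. Neuronal and chromaffin markers (10 genes) summed to 13.7 to 21.8 and 16.2 to 34.1 FPKM, and glial markers (7 genes) to 4.59 to 7.44 and 6.67 to 10.01 FPKM, so both of these overlapped between the groups. Stromal markers (8 genes) summed to 350 to 995 FPKM in controls and 924 to 1745 FPKM in mutants. These sums overlapped, and limma called 0 of the 8 (4 before adjustment at 0.05), while 3 were called in the authors' deposited table. The matrix genes Col1a1 and Col3a1 had the highest means of the list (252 and 208 FPKM in controls, 566 and 399 FPKM in mutants). Of the 8, 6 had a positive fold change and 2 a negative one. The 2 were Foxd1, the gene of the Cre driver (means 63.2 and 49.4 FPKM in controls and mutants), and Meis1 (28.7 and 25.0 FPKM). Macrophage markers (10 genes) summed to 19.1 to 21.7 and 23.9 to 37.6 FPKM without overlap, and limma called 0 (5 before adjustment at 0.05), as did the authors' deposited table. None of these markers was at 0 reads in any library. The part of these cells in the Fxyd7 result was not tested.

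The profiles most like Fxyd7 were sought among 12151 genes by the root mean square difference of log2 levels over the 6 libraries, each gene centred on its own mean. Ntng1, a netrin-related axon guidance gene, was nearest with a difference of 0.31, followed by Slc18a2, a vesicular monoamine transporter gene, with 0.38 and Mamdc2, a secreted matrix protein gene, with 0.42. The spread of Fxyd7 around its own mean was 1.47 on this scale. The mean of Ntng1 was 0.968 ± 0.442 FPKM in the control group and 7.01 ± 1.46 FPKM in the mutant group (SD, n = 3 each).

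Fxyd7 lies in a tight tandem of Fxyd genes on chromosome 7. In GENCODE M21 (build GRCm38, the same assembly as mm10) Fxyd1 (ENSMUSG00000036570.14) spans 31051678 to 31057199, Fxyd7 (ENSMUSG00000036578.7) 31042513 to 31051467 and Fxyd5 (ENSMUSG00000009687.14) 31032722 to 31042481, all on the minus strand. In the direction of transcription the order is Fxyd1, Fxyd7, Fxyd5. Only 210 bases separate Fxyd1 from Fxyd7 and 31 bases separate Fxyd7 from Fxyd5. The gap of 31 bases is printed to show how little sequence lies between the called gene and the gene that follows it, and the 250 bases before the RefSeq start of Fxyd1 show the sequence at the head of the first gene of the tandem (RefSeq, GRCm38.p6, minus strand, 5′ to 3′). The RefSeq start lies inside the GENCODE span of Fxyd1, which also covers transcripts that start further upstream, so this window falls within the gene body given above and overlaps no annotated exon.
Fxyd7 to Fxyd5 gap (chr7:31042482-31042512): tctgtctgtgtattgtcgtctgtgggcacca
Fxyd1, before the RefSeq start (chr7:31054854-31055103): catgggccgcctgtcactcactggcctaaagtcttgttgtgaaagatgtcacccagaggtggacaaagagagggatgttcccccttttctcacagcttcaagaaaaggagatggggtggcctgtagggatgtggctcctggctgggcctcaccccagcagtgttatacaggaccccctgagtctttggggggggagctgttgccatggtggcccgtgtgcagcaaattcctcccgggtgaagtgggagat
RefSeq windows were matched for 5 of the 7 genes (Fxyd1, Fxyd5, Fxyd6, Atp1b1 and Atp1b3). The consensus GACCACCCA, bound by the Gli factors of the Hedgehog pathway, was searched on both strands of the 250 bases before each start. It was in 0.225% of 32851 such windows of all genes and in no window of these 5, which says only that these letters are not in these bases.

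Fxyd1 encodes phospholemman, a pump regulator of heart and muscle. It was at 17.8, 10.9 and 19.7 FPKM in controls 1 to 3 and at 33.1, 21.04 and 23.3 FPKM in mutants 1 to 3. The groups did not overlap, but mutant 2 was only 1.07 times control 3. Means were 16.1 ± 4.67 and 25.8 ± 6.45 FPKM (SD, n = 3 each), and the log2 fold change of 0.69 (SE 0.27) did not pass over all genes (limma adjusted p = 0.484). Without control 2 it was 0.43, and without both control 2 and mutant 1, the lowest and the highest library, it was 0.24. The authors' deposited table gave 0.83 with an adjusted p of 0.115. Skeletal muscle markers summed to 34.8 to 61.5 FPKM in controls and 7.94 to 11.2 FPKM in mutants (10 genes, 6 of 9 tested called lower in limma). Mural and smooth muscle markers summed to 150 to 182 and 228 to 282 FPKM (10 genes, 0 called in limma). The part of muscle cells in the Fxyd1 values was not tested. The profile most like Fxyd1 was that of Ly6h, with a difference of 0.048 against a spread of 0.48 for Fxyd1 itself, followed by Ier3 and Nxph3 with 0.13 and 0.14.

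Fxyd5 encodes dysadherin, a pump regulator also tied to cell adhesion, and had the lowest group mean of the 7 in both groups, although Fxyd2 was below it in 4 of the 6 libraries and Fxyd7 in control 2. It was at 1.94, 1.36 and 1.93 FPKM in controls 1 to 3 and at 2.86, 2.69 and 2.55 FPKM in mutants 1 to 3, the lowest mutant being 1.31 times the highest control. Means were 1.74 ± 0.333 and 2.70 ± 0.156 FPKM (SD, n = 3 each). The log2 fold change was 0.64 (SE 0.21, limma adjusted p = 0.411), and 0.48 without control 2. The nearest profiles were those of Batf3, Ggt5 and Cnih2, with differences of 0.064, 0.064 and 0.074.

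**Figure D2:**
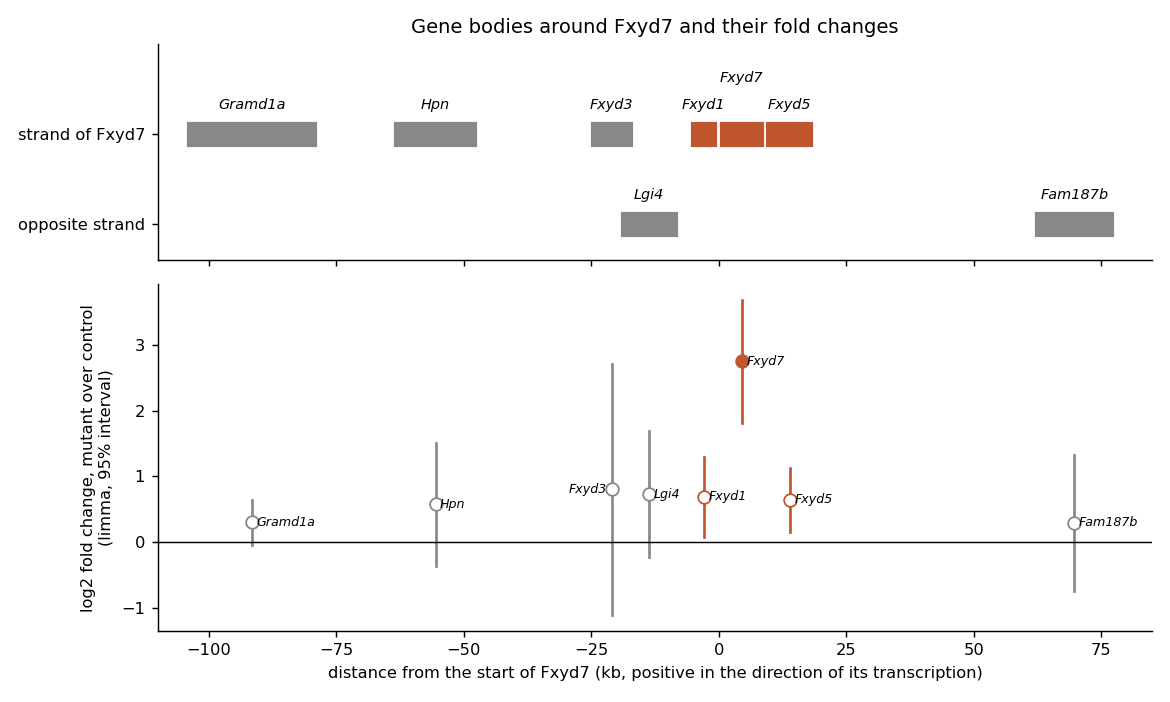
Gene bodies (top, by strand) around Fxyd7 and their limma log2 fold changes with 95% intervals (bottom, filled where adjusted p is under 0.05), against distance in kb from the start of Fxyd7. Fxyd7 stands at 2.75 while its neighbours Fxyd1 and Fxyd5 stand at 0.69 and 0.64. Not every gene of the region is drawn.

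The genes around the tandem did not pass either. Within 100 kb of any of the 7 genes there were 18 other genes of the table, and of the 13 tested limma called 0 (1 before adjustment at 0.05), as did the authors' deposited table. On the far side of Fxyd1, Lgi4, a secreted glial protein gene on the opposite strand, was at 0.102 to 0.222 FPKM in controls and 0.203 to 0.347 FPKM in mutants (limma: log2 fold change 0.73, SE 0.42, adjusted p = 0.583). Beyond Fxyd5, Fam187b was at 0.404 to 1.09 and 0.514 to 1.16 FPKM. Fxyd3, which encodes an epithelial pump regulator and lies 16704 bases from Fxyd7, was at 0.174, 0.813 and 0.155 FPKM in controls and 1.64, 0.207 and 0.368 FPKM in mutants. Hpn and Gramd1a are drawn for their position only, at log2 fold changes of 0.58 and 0.30, where limma gave adjusted p-values of 0.629 and 0.549.

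Fxyd6 encodes phosphohippolin, a pump regulator first described in brain. It was by level the leading Fxyd gene of these kidneys. It was at 100.3, 77.0 and 97.5 FPKM in controls 1 to 3 and at 97.8, 103 and 91.0 FPKM in mutants 1 to 3. Control 2 was the lowest library, and the groups overlapped. Means were 91.6 ± 12.7 and 97.3 ± 6.10 FPKM (SD, n = 3 each), and the log2 fold change was 0.10 (SE 0.14, 95% interval -0.22 to 0.41, limma adjusted p = 0.800). Its sign turned without control 2 (-0.025). Its nearest profiles were Selenos, Pigc and Anp32a, each with a difference of 0.034 to 0.036.

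Fxyd6 (ENSMUSG00000066705.7, chromosome 9, 45370185 to 45396159) is followed on the same strand by Fxyd2 (ENSMUSG00000059412.7, 45399669 to 45410278), with 3509 bases between them. These neighbours had unlike profiles. The highest library was 1.34 times the lowest for Fxyd6 and 10.7 times the lowest for Fxyd2.

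Fxyd2 split the libraries across genotype. It was at 1.16, 10.1 and 1.35 FPKM in controls 1 to 3 and at 12.3, 1.15 and 1.49 FPKM in mutants 1 to 3. Control 2 and mutant 1 were thus high and the other 4 libraries low, the lower of the high pair being 6.76 times the highest of the rest. The log2 fold change between genotypes was 0.14 with a wide interval (SE 1.03, 95% interval -2.21 to 2.48, limma adjusted p = 0.969). Its sign turned without control 1 (-0.41), control 3 (-0.31) or mutant 1 (-0.93), and without control 2 it was 1.13. Without both control 2 and mutant 1 it was 0.065 (SE 0.30).

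Atp1b1 encodes the main beta subunit of epithelia, which also takes part in cell adhesion (ENSMUSG00000026576.12, chromosome 1, 164437109 to 164458355). It was at 8.04, 29.6 and 10.1 FPKM in controls 1 to 3 and at 28.2, 11.0 and 10.8 FPKM in mutants 1 to 3. The same pair of libraries was high, with the lower of them 2.56 times the highest of the rest. The log2 fold change was 0.16 (SE 0.52, 95% interval -1.03 to 1.34, limma adjusted p = 0.921). It was -0.21 without control 1, -0.045 without control 3 and -0.30 without mutant 1, and 0.73 without control 2. In the authors' deposited table the fold changes of Fxyd2 and Atp1b1 were -0.28 and -0.31, opposite in sign to the ratios of the group means of the FPKM in the same table (log2 0.24 and 0.065). The cause of this was not tested.

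The 250 bases before the start of Atp1b1 are shown because this is the member of the pair with a RefSeq window, with GC boxes (GGGCGG, either strand) in capitals (GRCm38.p6, minus strand, 5′ to 3′).
Atp1b1, before the RefSeq start (chr1:164458356-164458605): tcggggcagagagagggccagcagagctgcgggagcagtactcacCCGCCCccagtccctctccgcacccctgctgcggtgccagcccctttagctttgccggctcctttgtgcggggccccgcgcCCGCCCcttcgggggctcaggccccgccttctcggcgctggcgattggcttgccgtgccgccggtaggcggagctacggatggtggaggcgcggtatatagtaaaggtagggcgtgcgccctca
This window had 70.4% G and C and 2 GC boxes, against 57.2% and 0 in the Fxyd1 window printed above. The Fxyd5 and Fxyd6 windows had 55.6% and 50.4% with 0 GC boxes. The 2 windows of Atp1b3 had 73.6% with 5 GC boxes and 76.8% with 0. A GC box was in 32.7% of all windows.

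Other Fxyd genes and the epithelial markers had the same high libraries. Fxyd4, a collecting duct regulator, was at 2.41, 6.62 and 1.63 FPKM in controls and 13.1, 3.55 and 2.06 FPKM in mutants, and Fxyd3 (above) was also highest in mutant 1 and control 2. Over all genes tested, 8.85% were higher in both control 2 and mutant 1 than in every other library, and 0.638% by at least 2 times, as Fxyd2, Fxyd3 and Atp1b1 were. The loop and distal tubule markers summed to 32.9 FPKM in control 2, 28.6 FPKM in mutant 1 and 8.45 to 14.4 FPKM elsewhere (7 of 8 listed genes in the table). Proximal tubule markers summed to 22.4 and 9.28 FPKM against 1.47 to 2.34 FPKM (9 genes), and ureteric trunk markers to 213 and 286 FPKM against 92.6 to 149 FPKM (10 genes). Each of these lists had at most 1 gene at 0 reads in any library. The part of tubule and ureteric cells in the Fxyd2 and Atp1b1 values was not tested.

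**Figure D3:**
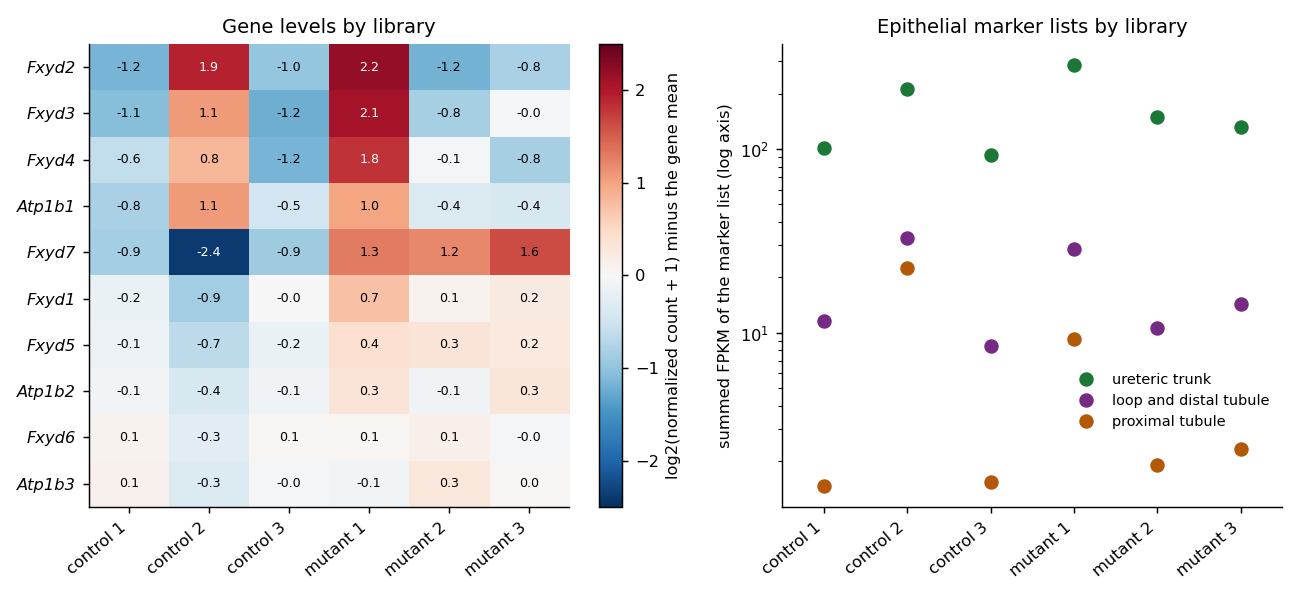
Left, log2(normalized count + 1) minus the gene mean over 6 libraries for Fxyd and pump subunit genes. Right, summed FPKM of 3 epithelial marker lists per library on a log axis. Control 2 and mutant 1 are the high columns for Fxyd2, Fxyd3, Fxyd4 and Atp1b1, and the same libraries top the marker lists.

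The nearest profiles to Fxyd2 were those of Slc39a5, a zinc transporter gene, Irx2, a homeobox gene of nephron segments, and Emx1, with differences of 0.29, 0.39 and 0.40 against a spread of 1.47 for Fxyd2 itself. Irx2 is 1 of the loop and distal tubule markers. The nearest to Atp1b1 were Elf5, an ETS factor gene of epithelia, Crybg1 and the kinesin gene Kif12, with 0.11, 0.15 and 0.15 against a spread of 0.74. Next to Atp1b1 on the opposite strand, the noncoding gene Gm32391 starts 4086 bases away. It was at 0.424, 1.40 and 0.377 FPKM in controls and 2.03, 1.25 and 0.736 FPKM in mutants, from 81 reads in all. On the other side Nme7 overlaps the last 617 bases of Atp1b1 on the opposite strand and was at 10.5, 15.8 and 12.7 FPKM in controls and 11.7, 13.8 and 9.70 FPKM in mutants. Reads in that overlap cannot be assigned without strand.

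Atp1b3 encodes the other widely expressed beta subunit (ENSMUSG00000032412.8, chromosome 9, 96332655 to 96364442). It was at 60.3, 44.1 and 54.8 FPKM in controls 1 to 3 and at 53.6, 68.6 and 57.3 FPKM in mutants 1 to 3. Control 2 was the lowest library, mutant 1 the next lowest, and the groups overlapped. Means were 53.1 ± 8.23 and 59.8 ± 7.79 FPKM (SD, n = 3 each), and the log2 fold change was 0.18 (SE 0.15, 95% interval -0.18 to 0.53, limma adjusted p = 0.673). Without control 2 it was 0.049 and without mutant 2 it was 0.074. Its nearest profiles were Mum1, Lnpk and Shroom1, with differences of 0.038 to 0.045. Its neighbours Tfdp2 (6.69 to 9.62 FPKM in controls, 5.37 to 6.57 FPKM in mutants) and BC043934 (0.518 to 0.762 and 0.561 to 0.761 FPKM) were not called.

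By group mean, the order in controls was Fxyd6, Atp1b3, Fxyd1, Atp1b1, Fxyd2, Fxyd7 and Fxyd5, set side by side as FPKM. Fxyd6 lay above Atp1b3, and Atp1b3 above Fxyd1, in every library of either group. From Fxyd1 downward, each gene in the control order overlapped the next. In mutants Fxyd7 took the place above Fxyd2, and its lowest library (14.5 FPKM) was above the highest Fxyd2 library (12.3 FPKM).

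Within the Fxyd family, Fxyd6 made up most of the summed FPKM in each library, 71.4% to 78.8% in controls and 55.4% to 70.5% in mutants. Fxyd1 made up 10.1% to 15.7% and 14.4% to 18.8%. Fxyd7 made up 2.70%, 1.07% and 2.67% in controls 1 to 3 and 8.84%, 9.88% and 13.8% in mutants 1 to 3. The summed Fxyd level was 108 to 127 FPKM in controls and 140 to 176 FPKM in mutants.

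Among the beta subunits the share of Atp1b1 followed the libraries, not the genotype. It was 39.1% of the summed beta FPKM in control 2, 33.1% in mutant 1 and 11.3% to 15.1% elsewhere. Atp1b3 made up 58.2% and 63.0% in that pair and 80.3% to 85.1% in the rest. The summed beta level itself was 67.5 to 75.8 FPKM in controls and 71.4 to 85.1 FPKM in mutants. Atp1b2, a beta subunit best known from glia, made up 2.64% to 4.58% in any library.

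**Figure D4:**
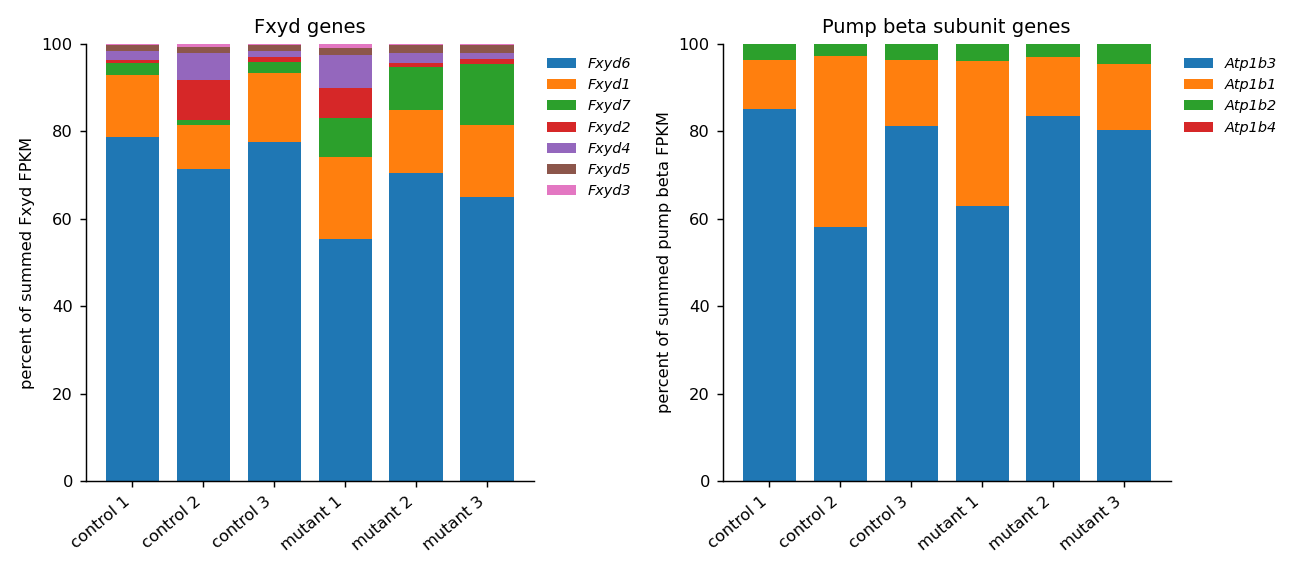
Stacked bars, from 0, of the percent that each Fxyd gene (left) and each pump beta subunit gene (right) contributed to the summed FPKM of its family in each library. The Fxyd7 segment is 1.07% to 2.70% in controls and 8.84% to 13.8% in mutants, and the Atp1b1 segment is widest in control 2 (39.1%) and mutant 1 (33.1%).

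Atp1b2 itself was at 2.54, 2.00 and 2.51 FPKM in controls and 3.32, 2.49 and 3.27 FPKM in mutants (limma: log2 fold change 0.36, SE 0.19, adjusted p = 0.566). Atp1a4, an alpha subunit gene of sperm, Atp1b4 and the proton pump gene Atp12a were in the table with 14, 11 and 17 reads over all libraries and did not pass the filter.

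Of the listed Fxyd family and pump subunit genes other than Fxyd7, none was called in limma. In the Fxyd list (7 genes, all tested) 1 was called, 3 had an unadjusted p under 0.05 and the median log2 fold change was 0.64. In the list of sodium pump and proton-potassium pump subunits, 6 of the 10 genes in the table were tested. Limma called 0, or 0 before adjustment at 0.05, and the authors' deposited table called 0. Unadjusted p-values under 0.05 were found for 9.63% of all genes tested. Atp4a, the gastric proton pump subunit gene of that list, was at 0.210 to 0.280 FPKM in controls and 0.172 to 0.248 FPKM in mutants.

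**Figure D5:**
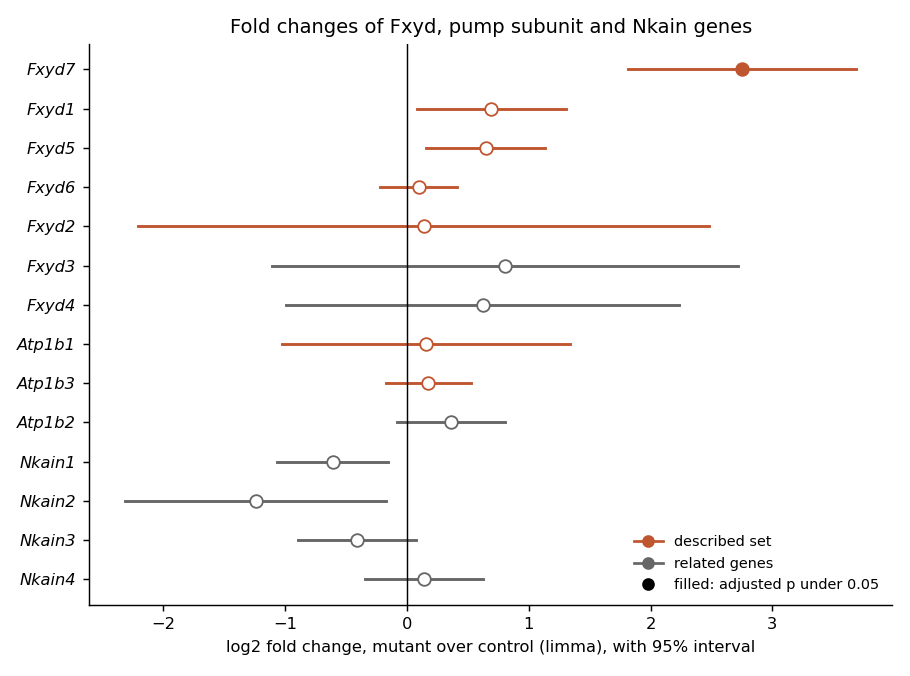
Limma log2 fold changes (mutant over control, x axis) with 95% intervals for the 7 described genes, related Fxyd and pump subunit genes, and the Nkain genes. Fxyd7 is the only filled point, at 2.75 (interval 1.82 to 3.69), and the intervals of Fxyd2, Fxyd3, Fxyd4 and Atp1b1 are among the widest.

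No listed partner of the pump passed the test. Of 12 partners and kinases of sodium transport, 4 had a positive and 8 a negative fold change (median -0.24), where 49.1% of all genes tested were positive. Neither limma nor the authors' deposited table called any (0 of 12), and 2 had an unadjusted p under 0.05, against 9.63% of all genes tested. The levels of 4 of the 12 did not overlap and were lower in mutants, where 9.09% of all genes tested were. These were Wnk4, a kinase gene of distal sodium transport, and Nkain1, Nkain2 and Nkain3, which encode membrane proteins that bind the pump beta subunit. Nkain1 was at 30.6, 40.1 and 36.7 FPKM in controls and 17.4, 27.5 and 26.5 FPKM in mutants (limma: log2 fold change -0.61, SE 0.20, adjusted p = 0.405). Nkain2 was at 0.292, 0.361 and 0.249 FPKM and 0.0606, 0.139 and 0.195 FPKM (limma adjusted p = 0.471), and Nkain3 at 1.264, 1.03 and 1.40 FPKM and 0.898, 0.900 and 0.952 FPKM (0.558). The kinase gene Stk39 was at 15.6 to 19.0 FPKM in controls and 12.8 to 16.3 FPKM in mutants. Without both control 2 and mutant 1, the highest and the lowest Nkain1 library, its fold change was -0.31.

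Genes of tubular sodium and potassium transport gave no call in limma. Of 17 listed, 11 were tested, 9 had a positive fold change (median 0.13) and 1 had an unadjusted p under 0.05. That gene was Slc8a1, the sodium-calcium exchanger of excitable and distal tubule cells, at 2.89, 5.85 and 5.64 FPKM in controls and 1.53, 2.62 and 2.44 FPKM in mutants (limma: log2 fold change -1.09, SE 0.32, adjusted p = 0.338). The authors' deposited table called it lower (-1.38, adjusted p = 0.000896). The skeletal muscle markers, given above, were lower in the same libraries, and their part in this value was not tested. The sodium channel subunit gene Scnn1b (control FPKM 1.13, 3.74 and 1.41, mutant FPKM 5.54, 1.93 and 2.01) and the loop cotransporter gene Slc12a1 (0.00967, 1.53 and 0.00859 FPKM in controls, and 1.91, 0.0473 and 0.119 FPKM in mutants) were highest in control 2 and mutant 1, as Fxyd2 was. Slc4a4, a bicarbonate cotransporter gene, was at 0.918 to 1.25 and 1.09 to 1.44 FPKM with overlapping groups.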

How the data were processed

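The submitters' processing notes name build mm10 and the tools HTSeq 0.6.1p2, STAR 2.6.0c, DESeq2 and Trim Galore. Their roles, and whether counting used strand, are not given in the sources used here. The deposited library columns are FPKM made by the authors. No header names the unit, which was taken from the values. The deposited table also holds the authors' mean normalized signal per gene, log2 fold change and its SE, test score, p-value and adjusted p-value, per the file headers. FPKM times mean signal over mean FPKM gave normalized counts, and 100% of 134364 values were whole reads of 1 step per library within 1e-06 reads.

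The test was limma (version 3.58.1, R 4.3.3) with its variance trend on mean level, on log2(normalized count + 1) of genes with at least 10 normalized counts in 3 or more libraries, with Benjamini-Hochberg adjustment over all 16933 genes. It was tested on simulated data. Alternatives were the pseudocount, filter, scaling, trend, library weights, replicate block and each library left out. No count model was run here. That each library came from 1 mouse is not stated, so p-values measure the spread between these libraries. With 3 against 3, an exact permutation test of 1 value cannot go below 0.1.

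Members and lists were chosen with earlier results of these data known. Named genes were the 7, all listed Fxyd and pump subunit genes, the 4 smallest p of the other lists (or those called), the nearest gene in the table on each side of a member, and the 3 nearest profiles among non-predicted genes with a mean of at least 50. Some of these genes are not reported here. Wnk4, Hpn, Gramd1a and some single markers of the cell type lists fall outside this rule and were named after their values were seen. Positions are from GENCODE M21.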

Additional observations from a re-analysis of the deposited data

How the results depend on the processing

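Over all genes, limma called 52 genes. It called 33 on log2(FPKM + 1) of genes with an FPKM of at least 1 in 3 or more libraries (46 with this filter on normalized counts), 32 with no intensity trend, 380 with library quality weights and 6 (without mutant 2) to 149 (without control 2) when 1 library was left out. Of the 7 genes described, and likewise of the Fxyd family, 1 was called as reported, 0 with no trend, and 0 to 1 with 1 library left out, the call being lost without any library except control 2. The cause was not tested. Without both control 2 and mutant 1, chosen after seeing the data, 164 genes were called and Fxyd7 had a log2 fold change of 2.28 (limma adjusted p = 0.0123). Over the 17 alternatives tried, Fxyd7 had limma adjusted p-values of 0.00225 to 0.202.

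Same-numbered libraries had correlations of deviations from their group means of 0.00081, -0.098 and 0.309. The labels do not say whether equal numbers were collected together. These correlations cannot settle it, because deviations from a mean of 3 libraries depend on each other. With the replicate number as a block, 17 genes were called, of the 7 and of the Fxyd family 0, and Fxyd7 had a limma adjusted p of 0.0614. Of the controls and mutants, not every library correlated best with its own number.

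Signs turned for genes that were not called. With 1 library left out, log2 fold changes were -0.93 to 1.13 for Fxyd2, -0.025 to 0.17 for Fxyd6, -0.30 to 0.73 for Atp1b1, -0.033 to 1.54 for Fxyd3, -0.13 to 1.20 for Fxyd4, -0.0086 to 0.71 for Fam187b, -0.29 to 0.0086 for Nme7 and -0.018 to 0.25 for BC043934. Without both control 2 and mutant 1, Fxyd6 was at -0.029 and Nme7 at 0.0022. With quantile normalization BC043934 was at -0.030. Fxyd1, Fxyd5, Fxyd7 and Atp1b3 kept a positive sign in all 17. Some genes of few reads were not tested under every alternative. Fxyd7 in control 2 rests on 20 reads and Fxyd2 in mutant 2 on 26.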

Other observations

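In the authors' deposited table, the log2 fold change and the log2 ratio of the group means of the FPKM had opposite signs for 1957 of 16932 genes (11.6%), Fxyd2 and Atp1b1 among them, and differed by more than 0.3 for 2230 genes (13.2%).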
